A study of Homo sapiens with 9 samples.

Results

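The 52 genes described here are neighbours on the long arm of human chromosome 6, from PHF3 to FBXL4, a stretch of 35.3 Mb. They were listed because their RNA had appeared lower in the knockout line B3 than in wild-type cells, so the B3 values are a description of the choice and carry no test. All 52 were among the 19356 genes of the table, and 50 were among the 16457 genes that passed the filter on low values. B3GAT2, a glucuronyltransferase gene, and SNAP91, a clathrin adaptor gene, did not pass: their log2 values were 0.64 to 0.67 and 1.65 to 1.69. The libraries were made from polyadenylated RNA of LN229, an established human glioblastoma line. There were 3 libraries of wild-type cells (WT) and 3 of each of the lines B3 and C4, in which ARNT2 had been targeted by CRISPR, all grown in DMEM with 5% FBS. Each knockout genotype is thus represented by a single line per name, and the labels do not say that libraries of a group came from separate cultures. P-values therefore measure only the spread between these libraries, which may be technical.

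Genes that lie side by side on a chromosome seldom share a function, but they share the DNA segment that carries them. RNA levels do not measure how many copies of a segment a line holds, and DNA was not analysed here. The members are otherwise a mixed group, with roles from chromatin to vesicle traffic, and all 52 are protein-coding. ARNT2, the targeted gene, encodes a basic helix-loop-helix PAS factor that binds DNA with a partner at short motifs.

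RNA of the targeted gene was checked first, and ARNT2 was at 13.57 ± 0.02 in WT, at 11.89 ± 0.02 in B3 and at 12.14 ± 0.09 in C4 (log2 values, SD over 3 libraries each). The neural stem cell filament gene NES was at 15.32 to 15.47 and VIM at 17.83 to 18.23 over the 9 libraries, and the leukocyte gene PTPRC at 2.35 to 2.40. GFAP, the astrocyte filament gene, was low at 6.61 to 6.98. The other planned markers of the line were SOX2 at 12.19 to 12.50, CD44 at 16.48 to 16.62, S100B at 16.12 to 16.49 and OLIG2 at 11.54 to 11.89. Among all these line markers, GFAP, VIM, SOX2 and S100B were called higher in B3 (limma, adjusted p under 0.05). In C4, GFAP, CD44, S100B and OLIG2 were called higher and VIM lower. The fibroblast genes COL1A1 and DCN were at 9.32 to 9.95 and 9.76 to 10.72. The epithelial genes EPCAM and CDH1 were at 5.55 to 5.97, and the endothelial genes PECAM1 and VWF at 5.19 to 5.46 and 8.48 to 8.95. Of these markers of other cell types, 4 passed the test in B3 (limma, adjusted p under 0.05): mean values went from 8.92 to 8.51 for VWF, from 5.43 to 5.32 for PECAM1, from 10.4 to 10.68 for DCN and from 10.7 to 10.97 for CD68, a macrophage gene that many cells use. In C4, DCN went to 9.9 and PECAM1 to 5.2 and passed the test (limma, adjusted p = 9.81e-09 and 1.72e-06). Their part in the results was not tested. Values below are log2 values as deposited, and differences are on that scale with the SE from limma. Sequencing depth is unknown. Values under 5 appear drawn toward each gene's mean, so differences of such genes may be understated. The median SD between replicates was 0.00935 at values under 2, 0.0223 at 2 to 5 and 0.0452 at 8 to 12. At 5 to 8 it was 0.049 and showed no such narrowing. That does not show that differences at 5 to 8 are stated in full. No tested gene had a mean under 3.32.

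Promoters were searched because a member list in an ARNT2 knockout invites the question of whether bHLH-PAS motifs are common near its start sites. RefSeq windows on GRCh38.p14 of 250 bases before to 50 after a start matched 49 of the 52 members. The 250 bases before the start are shown for 3 members, to set 2 that were lower in B3 beside 1 that was not, with each ACGTG, the core of several motifs of this factor family, in capitals on either strand. ZNF292 (chr6:87155315-87155564, plus strand) has 6 matches, MDN1 (chr6:89819795-89820044, minus strand) has 2 and MANEA (chr6:95577285-95577534, plus strand) has 1, where a CACGTG counts on both strands.
ZNF292: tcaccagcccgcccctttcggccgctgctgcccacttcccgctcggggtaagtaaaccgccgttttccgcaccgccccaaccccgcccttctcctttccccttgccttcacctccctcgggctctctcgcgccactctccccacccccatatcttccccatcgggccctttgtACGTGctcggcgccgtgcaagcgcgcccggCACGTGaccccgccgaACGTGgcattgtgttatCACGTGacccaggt
MDN1: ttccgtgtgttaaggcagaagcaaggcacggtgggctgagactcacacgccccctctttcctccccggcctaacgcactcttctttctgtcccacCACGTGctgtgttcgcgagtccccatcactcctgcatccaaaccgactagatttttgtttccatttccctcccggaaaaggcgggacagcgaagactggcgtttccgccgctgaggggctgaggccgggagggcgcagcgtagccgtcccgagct
MANEA: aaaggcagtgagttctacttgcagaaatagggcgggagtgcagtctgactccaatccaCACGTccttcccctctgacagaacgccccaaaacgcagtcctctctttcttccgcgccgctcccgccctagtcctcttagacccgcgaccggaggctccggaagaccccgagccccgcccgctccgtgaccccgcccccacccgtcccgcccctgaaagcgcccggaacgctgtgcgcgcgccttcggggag

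In the whole windows, ACGTG was held by 22 of 49 members, 44.9%, against 25.9% of the promoters of 11671 tested genes and 21.6% of all 27305 promoters. Of the 44 matched members before MANEA, 19 held it, 43.2%, so the share was no higher without the members from MANEA on. GCGTG, the core of the dioxin response element, was held by 44.9% of the members and 49% of tested genes. The E-box CACGTG, which holds ACGTG, was held by 12.2% of the members and 9.67% of tested genes. The windows of members had a median GC content of 67%, against 64.7% for tested genes. The gene with the most matches of the 3 shown, ZNF292, a zinc-finger gene, was 0.53 ± 0.03 lower in B3 and 0.07 ± 0.03 higher in C4, and MANEA, which also holds the motif, was 0.03 ± 0.04 lower in B3. The 3 were picked by hand with regard to their B3 values, and all hold the motif. Nothing is read from their differences, and a relation of motif to difference was not tested. A match is a description of letters and not a binding site.

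The members as a group were lower in all 3 B3 libraries and near the wild-type level in C4. Measured from the mean of the WT libraries, the median member stood at -0.412, -0.402 and -0.415 in the 3 B3 libraries. It stood at 0.023, -0.013 and -0.047 in the 3 C4 libraries and at 0.015, -0.005 and -0.012 in the WT libraries. The B3 libraries thus lay apart from the other 6, and those of C4 overlapped those of WT. The median difference between B3 and WT was -0.41 over the 50 members, a level of 75.1% of WT, against 0.00 over all tested genes. All 3 B3 libraries lay below all 3 WT libraries for 44 of the 50 members, where 27.4% of all tested genes did so. In that comparison 43 members were called lower and 1 higher at an adjusted p under 0.05, beside 24.6% and 23.2% of all tested genes, but the members were chosen on it and nothing is read from these counts.

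**Figure D1:**
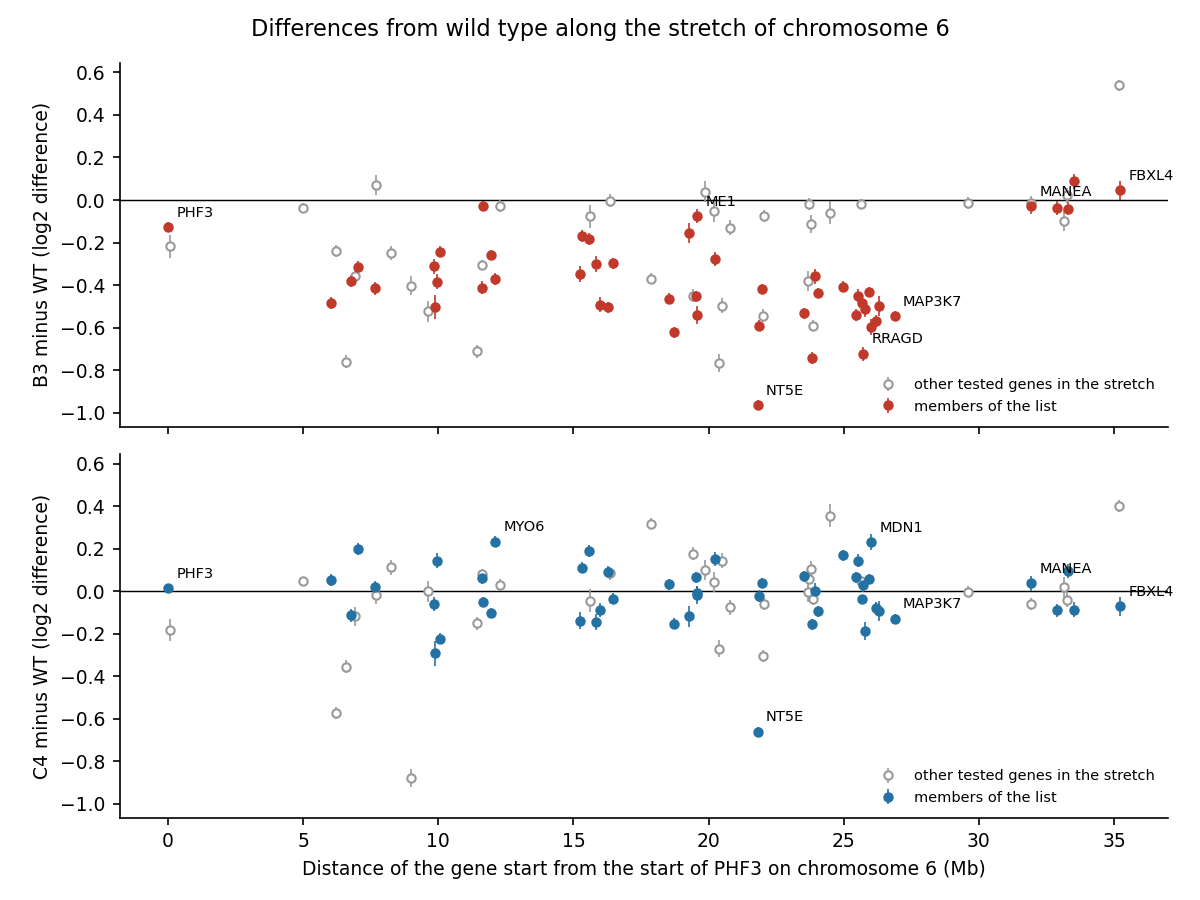
Log2 difference from wild type (y axis, limma estimate with its SE, 3 libraries a group) against the distance of each gene's start from the start of PHF3 in Mb (x axis), for B3 above and C4 below. Filled points are the members and open points the other tested genes in the stretch. In B3 the members up to MAP3K7 lie between -0.96 and -0.03, and the 5 from MANEA on lie between -0.04 and 0.09, while in C4 most points scatter around 0 and NT5E stands lowest of the members.

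The difference in B3 was neither uniform nor present over the whole list. PHF3 (ENSG00000118482.11, chr6:63635820-63779336, plus strand, GRCh38), a transcription regulator and the first member, was lower by a small amount, -0.13 ± 0.02. LMBRD1 (ENSG00000168216.11, chr6:69675793-69867236, minus strand), the lysosomal exporter of cobalamin and the next member 5.9 Mb on, was at -0.49 ± 0.03. MAP3K7 (ENSG00000135341.17, chr6:90513573-90587045, minus strand), the kinase TAK1 of inflammatory and TGF-beta signalling, was at -0.55 ± 0.02. The next member, MANEA (ENSG00000172469.15, chr6:95577543-95609457, plus strand), an endomannosidase of N-glycan processing, was at -0.03 ± 0.04. No member and only the weakly expressed EPHA7 and MANEA-AS1 were tested in the 4.99 Mb between those last genes, with log2 values of 4.44 to 4.54 and 5.12 to 5.23 over the 9 libraries. The label of the list as genes lower in B3 does not hold for the 5 members from MANEA on. Of the 45 tested members up to MAP3K7 it holds for all but FILIP1, whose libraries overlapped those of WT, and it is weak for ME1, at -0.08 ± 0.03.

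In bins of 5 Mb over all tested genes, members or not, the median B3 difference was -0.14 at 55 to 60 Mb (10 genes), -0.38 at 70 to 75 Mb (13 genes), -0.30 at 75 to 80 Mb (14 genes) and -0.34 at 80 to 85 Mb (16 genes). It was -0.49 at 85 to 90 Mb (25 genes) and -0.01 at 95 to 100 Mb (15 genes). Bins at 60 to 65, 65 to 70 and 90 to 95 Mb held 4, 3 and 2 tested genes and give no firm value. The 5 Mb bins of chromosome 6 from 70 to 90 Mb were the 4 lowest of the 499 bins in the genome that held at least 10 tested genes. The next was the bin of 25 to 30 Mb on chromosome 12, with a median of -0.30 over 24 genes. In order of position, 7, 10, 8 and 17 of the genes in the 4 lowest bins were members. Members were chosen for low B3 values, so nothing is read from that rank. Outside the stretch the 738 other tested genes of chromosome 6 had a median of 0.02. In C4, the bins from 70 to 90 Mb and that at 95 to 100 Mb had medians of -0.06 to 0.04.

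At the upper edge, the 3 tested genes before PHF3 did not share 1 value in B3. The phosphatase gene PTP4A1, next to PHF3, was at 15.19, 15.25 and 15.23 in WT and 15.21, 15.23 and 15.21 in B3. The groups overlapped. The weakly expressed LGSN was at -0.26 ± 0.04 in B3 and 0.45 in C4, and the pseudogene GUSBP4, whose reads can be shared with related copies, was at -0.19 ± 0.04 and -0.35. Beyond FBXL4 (ENSG00000112234.8, chr6:98868538-98948006, minus strand), the B3 differences were 0.04 ± 0.05 for FAXC, 0.03 ± 0.04 for COQ3, an enzyme of ubiquinone synthesis, and -0.05 ± 0.03 for PNISR.

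The 34 tested genes of the stretch that are not members were lower less uniformly. Their median B3 difference was -0.12. For 20 of them all B3 libraries lay below all WT libraries, against 27.4% of all tested genes, in a stretch chosen on this contrast. The 31 that start before MANEA had a median of -0.22, and the 19 of those with a mean log2 value of at least 8 had a median of -0.38, close to the -0.44 of the 44 members chosen by the same position and level. The lowest were MRAP2, which encodes an accessory protein of melanocortin receptors, at -0.77 ± 0.04, the collagen genes COL9A1 and COL12A1 at -0.76 ± 0.03 and -0.71 ± 0.03, the mitochondrial arginyl-tRNA synthetase gene RARS2 at -0.59 ± 0.03 and the host gene of small nucleolar RNAs SNHG5 at -0.54 ± 0.03. POU3F2, a neural transcription factor gene next to FBXL4, was higher in B3, at 11.88, 11.82 and 11.82 in WT and 12.36, 12.40 and 12.37 in B3. POU3F2 was higher in C4 too, at 12.21, 12.26 and 12.26. TTK, a mitotic kinase gene that lies between ELOVL4 and BCKDHB, was at 12.25, 12.20 and 12.20 in WT and 12.17, 12.17 and 12.29 in B3. Its groups overlapped, while the members beside it, ELOVL4 and BCKDHB, were at -0.51 and -0.30. PRSS35, NDUFAF4 and MANEA-AS1 were at 0.04, 0.02 and -0.01.

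**Figure D2:**
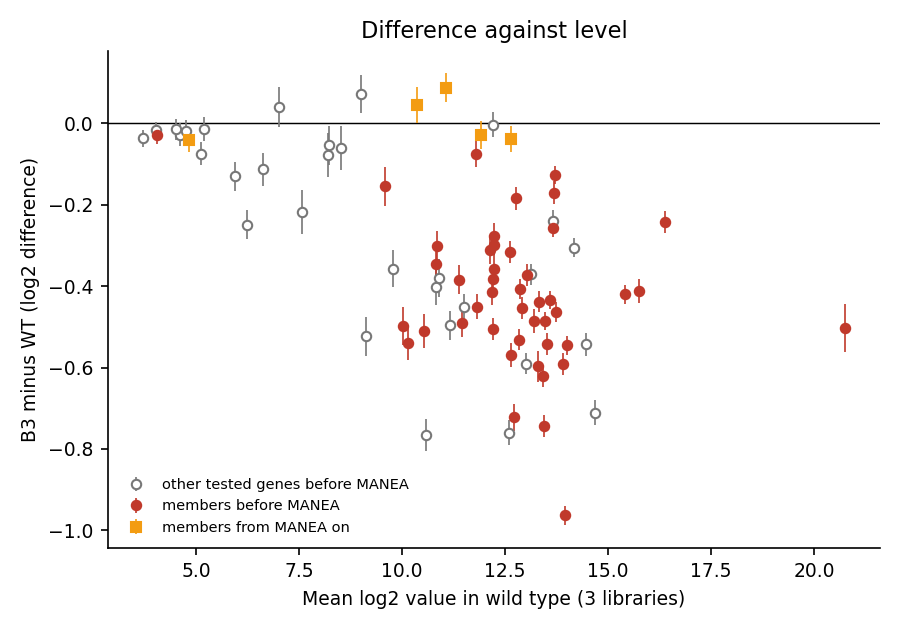
B3 minus WT as a log2 difference with its SE (y axis) against the mean log2 value in the 3 WT libraries (x axis), for members before MANEA (filled circles), members from MANEA on (squares) and other tested genes before MANEA (open circles). Genes of the stretch with WT values under 8 lie between -0.25 and 0.04, and among the members above that level the difference shows little order by level.

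The members differed from each other by more than their error. The SD of the B3 difference over the 50 members was 0.21, against a median SE of 0.03 for a single member. Of the differences, 28 of 50, 56%, lay between -0.55 and -0.3, and the quartiles were -0.51 and -0.26. Over the 44 members before MANEA with a mean log2 value of at least 8, the B3 difference and the WT level had Pearson r = -0.14 and Spearman rho = -0.18, a description over genes that share libraries. Over all 50 members the values were -0.40 and -0.36. The 25 members on the plus strand had a median of -0.37 and the 25 on the minus strand -0.43.

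The 5 lowest members in B3 were a nucleotidase, a sugar transporter, a Rag GTPase, a surface glycoprotein and a ribosome assembly factor. NT5E (ENSG00000135318.11, chr6:85449584-85495791, plus strand) encodes CD73, the surface enzyme that makes adenosine from AMP. It had values of 14.01, 13.96 and 13.92 in WT, 12.98, 13.01 and 13.01 in B3, and 13.30, 13.31 and 13.29 in C4. NT5E was thus lower in all 6 knockout libraries, at 51.3% of WT in B3, and it was the lowest member in C4 too. SLC35A1, the Golgi transporter of CMP-sialic acid, had 13.48, 13.42 and 13.41 in WT, 12.68, 12.66 and 12.75 in B3, and 13.32, 13.25 and 13.27 in C4, so that C4 lay between the other groups. RRAGD, which helps carry amino acid signals to mTORC1 at the lysosome, had 12.66, 12.73 and 12.75 in WT, 12.01, 12.03 and 11.93 in B3, and 12.81, 12.71 and 12.70 in C4. Its C4 libraries overlapped those of WT.

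TPBG, the trophoblast glycoprotein 5T4, had values of 13.46, 13.39 and 13.40 in WT, 12.78, 12.77 and 12.83 in B3, and 13.22, 13.29 and 13.29 in C4. MDN1, a large ATPase that matures the 60S ribosomal subunit, had 13.35, 13.27 and 13.29 in WT, 12.74, 12.66 and 12.72 in B3, and 13.43, 13.52 and 13.66 in C4. TPBG was lower in both lines, while MDN1 lay below WT in every B3 library and above it in every C4 library. The differences in B3 were -0.74 ± 0.03 for SLC35A1, -0.72 ± 0.03 for RRAGD, -0.62 ± 0.03 for TPBG and -0.60 ± 0.04 for MDN1.

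The 3 members nearest the median of the list show its usual size. OGFRL1, a relative of the opioid growth factor receptor, had 12.16, 12.20 and 12.17 in WT, 11.74, 11.80 and 11.73 in B3, and 12.24, 12.19 and 12.14 in C4. TMEM30A, the CDC50A subunit that phospholipid flippases need, had 15.83, 15.71 and 15.73 in WT, 15.30, 15.36 and 15.37 in B3, and 15.82, 15.81 and 15.83 in C4. RNGTT, the enzyme that puts the cap on messenger RNA, had 12.86, 12.82 and 12.89 in WT, 12.46, 12.43 and 12.45 in B3, and 13.05, 13.03 and 12.99 in C4. B3 lay below both other groups for each of the 3, and in C4 only RNGTT parted from WT, upward.

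The most abundant member was EEF1A1 (ENSG00000156508.17, chr6:73515750-73523797, minus strand), the elongation factor that brings aminoacyl-tRNA to the ribosome. It had 20.66, 20.81 and 20.75 in WT, 20.25, 20.23 and 20.23 in B3, and 20.51, 20.41 and 20.42 in C4. Both lines lay below WT, and B3 below C4. EEF1A1 has many near-identical processed pseudogenes, so its reads may have been split and its value is uncertain. CD109, a surface protein that restrains TGF-beta signalling, had 16.42, 16.35 and 16.34 in WT, 16.10, 16.14 and 16.14 in B3, and 16.12, 16.14 and 16.18 in C4, and the 2 lines overlapped. SYNCRIP, an RNA-binding protein of splicing and translation control, had 15.43, 15.39 and 15.41 in WT, 14.99, 15.01 and 14.98 in B3, and 15.49, 15.44 and 15.42 in C4.

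The 5 highest members in B3 were FILIP1 and 4 genes beyond the gap after MAP3K7. MMS22L, which works with TONSL in the repair of stalled replication forks, had 11.11, 11.06 and 11.04 in WT, 11.19, 11.10 and 11.18 in B3, and 10.97, 11.03 and 10.95 in C4. FBXL4, a mitochondrial F-box protein, had 10.43, 10.37 and 10.28 in WT and 10.34, 10.44 and 10.44 in B3. The B3 and WT libraries overlapped for both, and MMS22L, at 0.09 ± 0.04, is the 1 member called higher in B3. MANEA had 11.99, 11.89 and 11.86 in WT and 11.84, 11.86 and 11.96 in B3. UFL1, the ligase that attaches the modifier UFM1, had 12.71, 12.64 and 12.61 in WT and 12.56, 12.59 and 12.69 in B3. The B3 and WT libraries overlapped for both. FILIP1, a filamin-binding protein gene, lies inside the lower stretch beside TMEM30A but was hardly expressed. It was at 4.01 to 4.09 in WT and 3.98 to 4.06 in B3, a range where differences may be understated. KLHL32, beyond the gap, was as weak, at 4.80 to 4.86 in WT and 4.77 to 4.83 in B3.

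**Figure D3:**
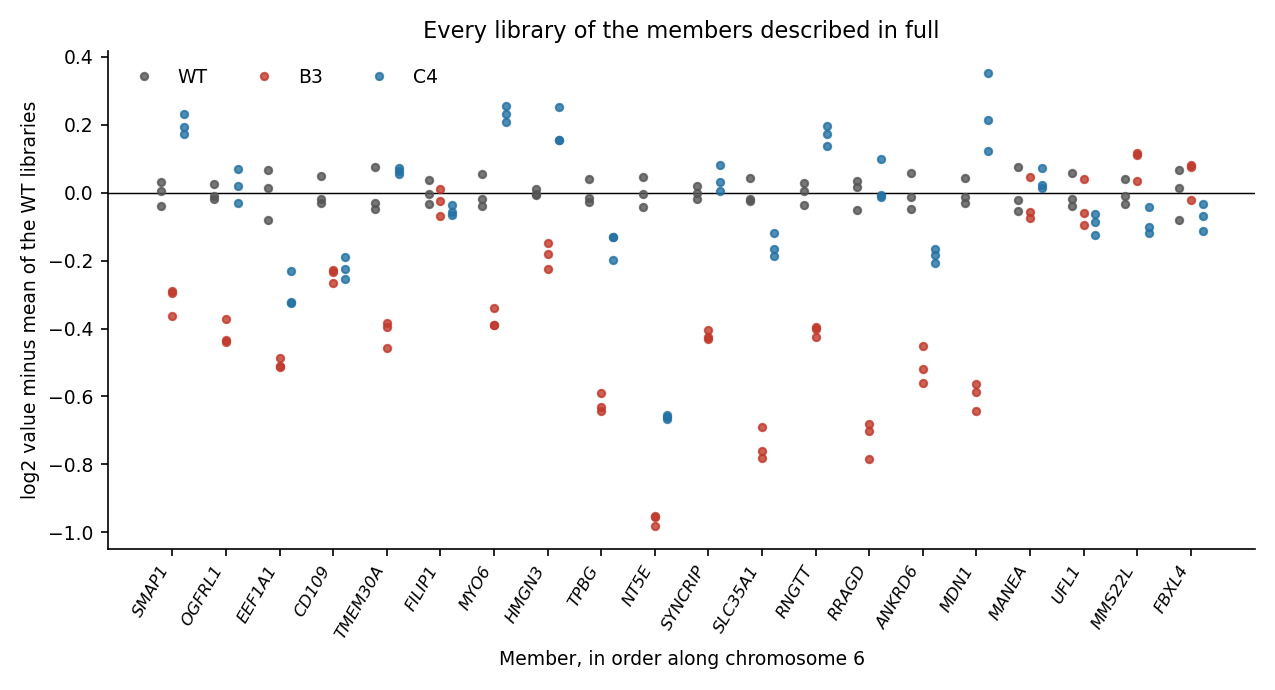
Log2 value of each of the 9 libraries minus the mean of the 3 WT libraries (y axis) for the 20 members described in full, in their order along chromosome 6 (x axis). Grey, red and blue points are single WT, B3 and C4 libraries. For SMAP1, MYO6, HMGN3, RNGTT and MDN1 the blue points lie above the grey and the red below, and for the last 4 members the red and grey points overlap.

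By role, the 8 chromatin and transcription members had a median of -0.47 in B3. All 8 start before MANEA, where every tested member had a B3 mean below that of WT, so nothing is read from the role. CASP8AP2, a factor needed for histone gene transcription, was at -0.57 ± 0.03. PNRC1, a nuclear receptor coregulator, was at -0.54 ± 0.03, the repressor gene BACH2 at -0.50 ± 0.05 and AKIRIN2, a nuclear import factor of proteasomes, at -0.44 ± 0.02. The nucleosome-binding HMGN3 at -0.18 ± 0.03, PHIP, a substrate receptor of CRL4 ligases, at -0.17 ± 0.03 and PHF3 formed the small end. HMGN3 overlaps the weak antisense gene HMGN3-AS1 (-0.08 in B3) near its start. Reads from the shared part cannot be told apart unless strand was counted, and that is not given in the sources used here. The same limit holds for other members that overlap a gene on the other strand. Such pairs include LYRM2 and ANKRD6, IRAK1BP1 and PHIP, PGM3 and DOPEY1, and PHF3 and EYS.

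The 8 tested members of membrane traffic, lysosome and motors had a median of -0.40 in B3. SNX14, a sorting nexin that ties endoplasmic reticulum to lipid droplets, was at -0.59 ± 0.03. SLC17A5, the lysosomal exporter of sialic acid, was at -0.38 ± 0.035, MYO6, the myosin that walks toward the minus end of actin, at -0.37 ± 0.03 and SMAP1, a regulator of Arf6 and clathrin traffic, at -0.32 ± 0.03. With SLC35A1, both sialic acid transporters of the list were thus lower in B3, and they differed in C4, where SLC17A5 was at 0.14 ± 0.035 and SLC35A1 at -0.16 ± 0.03.

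The 10 tested members of metabolism and glycosylation ran from -0.96 to -0.03 in B3, with a median of -0.44. ELOVL4, which elongates very long fatty acids, was at -0.51 ± 0.03, PGM3 of UDP-GlcNAc synthesis at -0.45 ± 0.03, PM20D2, a dipeptidase, at -0.45 ± 0.03 and the mitochondrial LYRM2 at -0.43 ± 0.02. BCKDHB, a subunit of the branched-chain ketoacid dehydrogenase, was at -0.30 ± 0.03 and the reductase CYB5R4 at -0.28 ± 0.03. ME1, the cytosolic malic enzyme, was the exception within the stretch among well-expressed members: it had 11.77, 11.81 and 11.82 in WT and 11.71, 11.71 and 11.76 in B3, a difference of -0.08 ± 0.03 between RWDD2A at -0.54 ± 0.04 and CYB5R4.

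The 7 signalling and surface members had a median of -0.46 in B3. They included IBTK, an inhibitor of Bruton's kinase, at -0.46 ± 0.03, ANKRD6, an inhibitor of Wnt signalling, at -0.51 ± 0.04 and IRAK1BP1, a partner of the kinase IRAK1, at -0.35 ± 0.04. Of the ubiquitin, SUMO and UFM1 members, UBE2J1, the conjugating enzyme of protein quality control in the endoplasmic reticulum, was at -0.49 ± 0.02 and SENP6, which shortens SUMO chains, at -0.26 ± 0.02. UBE3D, a ubiquitin ligase gene, was at -0.15 ± 0.05, and the other 3 of that group lie beyond the gap. The tRNA modification gene MTO1 was at -0.31 ± 0.03 and the origin recognition gene ORC3 at -0.36 ± 0.04. Of the rest, SH3BGRL2 was at -0.49 ± 0.03, FAM135A at -0.38 ± 0.03 and the ciliary gene LCA5 at -0.30 ± 0.04.

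**Figure D4:**
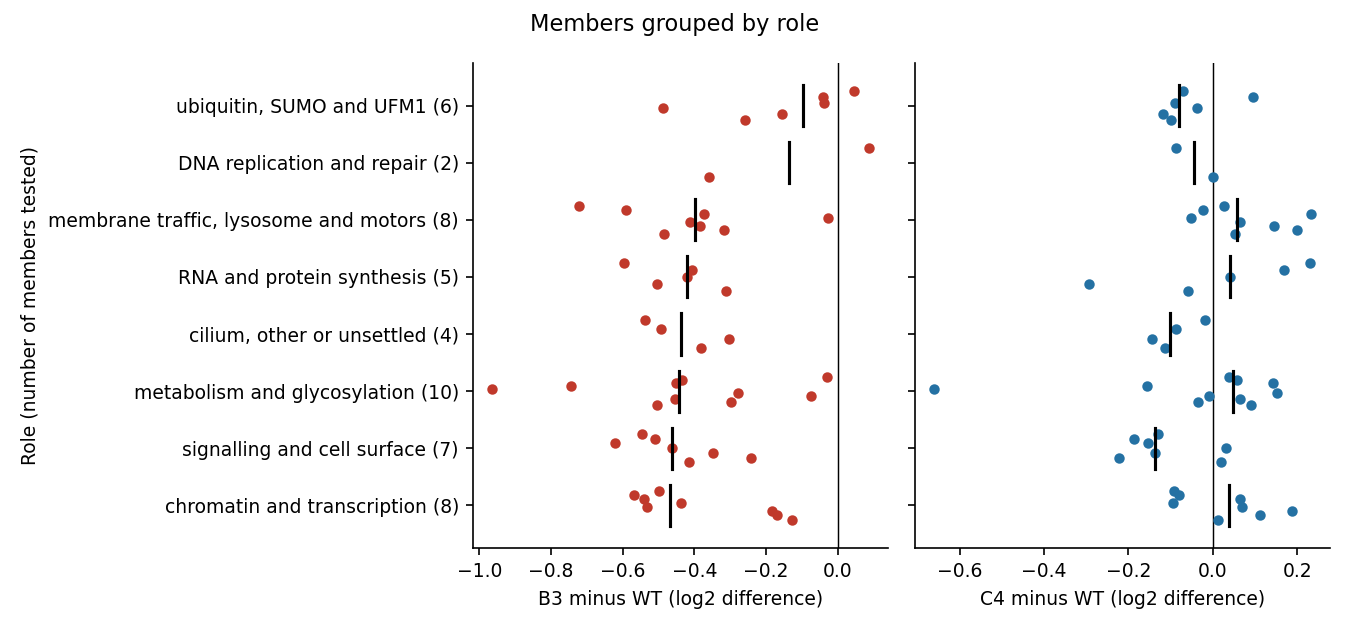
Log2 difference from WT (x axis) of the 50 tested members, grouped by role with the number of members (y axis), for B3 on the left and C4 on the right. Each point is a member and the black bar is the median of the role. In B3 the medians run from -0.47 for chromatin and transcription to -0.10 for ubiquitin, SUMO and UFM1, and in C4 from -0.14 to 0.06.

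C4 was also an ARNT2 knockout. The list was named for lower values in B3, but it was drawn up with earlier results of these data known. C4 values may thus have had a part in the choice, and C4 is compared with the same WT libraries, so it is not an independent check. Here the members moved both ways. Of the 50, 15 were called higher and 17 lower in limma's fit at an adjusted p under 0.05, 18 were not called, and the median was -0.01. Of all tested genes, 28.2% were called higher and 28.0% lower, with a median of 0.00. With every library scaled to the same summed antilog, 19 members were called higher and 12 lower, beside 35.8% and 22.4% of all tested genes, so the calls moved toward the higher direction under that scaling, for the members and for all genes. All 3 C4 libraries lay above all WT libraries for 12 members and below them for 19, where 30.4% and 30.2% of all tested genes did so. The SD of the C4 difference over the members was 0.15, against 0.22 over all tested genes.

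The members highest in C4 were MYO6, MDN1, SMAP1, HMGN3 and RNGTT. MYO6 had 13.09, 13.00 and 13.02 in WT, 12.65, 12.70 and 12.65 in B3, and 13.27, 13.29 and 13.25 in C4. It rose by 0.23 ± 0.03 in C4 (limma, adjusted p = 9.23e-08, higher in 3 of 3 libraries). MDN1 rose by 0.23 ± 0.04 (limma, adjusted p = 1.69e-05), with C4 libraries spread from 13.43 to 13.66. SMAP1 had 12.57, 12.64 and 12.62 in WT, 12.32, 12.32 and 12.25 in B3, and 12.84, 12.80 and 12.78 in C4. SMAP1 rose by 0.20 ± 0.03 in C4 (limma, adjusted p = 1.54e-06), and RNGTT by 0.17 ± 0.03 (limma, adjusted p = 4.56e-06). HMGN3 had 12.78, 12.76 and 12.76 in WT, 12.62, 12.54 and 12.58 in B3, and 13.02, 12.92 and 12.92 in C4, a rise of 0.19 ± 0.03 in C4 (limma, adjusted p = 4.37e-06). All 5 were above every WT library in every C4 library and below every WT library in every B3 library, as were 12 of the 50 members and 5.51% of all tested genes. Nothing is read from that share, since the members were chosen for low B3 values.

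The members lowest in C4 were NT5E, EEF1A1, CD109, ANKRD6 and SLC35A1. NT5E fell by 0.66 ± 0.02 in C4, to 63.3% of WT (limma, adjusted p = 1.37e-16). EEF1A1 fell by 0.29 ± 0.06 (limma, adjusted p = 0.000152), CD109 by 0.22 ± 0.03 (limma, adjusted p = 2.28e-07) and SLC35A1 by 0.16 ± 0.03 (limma, adjusted p = 3.54e-05). ANKRD6 had 10.490, 10.526 and 10.597 in WT, 9.978, 10.085 and 10.018 in B3, and 10.353, 10.331 and 10.371 in C4. It fell by 0.19 ± 0.04 in C4 (limma, adjusted p = 0.000466). MAP3K7 fell by 0.13 ± 0.02 (limma, adjusted p = 5.42e-05) and TPBG by 0.15 ± 0.03 (limma, adjusted p = 2.63e-05). All these genes were below every WT library in 3 of 3 C4 libraries.

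Partners of the members that are encoded elsewhere were listed by known complexes and paralogues, and 62 of 64 were tested. In B3 against WT they moved both ways: 17 were called higher and 13 lower in limma's fit and 32 were not called, with a median of 0.02, near the background shares of 23.2% and 24.6%. With every library scaled to the same summed antilog, 26 were called higher and 9 lower, beside 33.3% and 18.6% of all tested genes. For ORC3, the origin recognition genes ORC1, ORC2 and ORC6 rose, ORC1 by 0.24 ± 0.03 (limma, adjusted p = 2.40e-06), and ORC4 fell by 0.10 ± 0.03 (limma, adjusted p = 0.00375). The TAK1-binding protein gene TAB3 rose by 0.21 ± 0.03 (limma, adjusted p = 1.99e-06), and TAB1 and TAB2 were at 0.00 ± 0.03 and 0.01 ± 0.02. The MYO6 adaptor genes GIPC1 and TAX1BP1 rose by 0.23 ± 0.03 (limma, adjusted p = 7.56e-08) and fell by 0.23 ± 0.02 (limma, adjusted p = 4.02e-08). BCKDHA, the other chain of the enzyme that BCKDHB belongs to, fell by 0.22 ± 0.03 (limma, adjusted p = 5.40e-06). Of the 8 flippase genes listed for TMEM30A, 5 were called lower, 0 higher and 3 not called in B3, with a median of -0.116. Of the 8 partners of RRAGD, 3 were called higher, 0 lower and 5 not called, with a median of 0.054. EEF1A2, the paralogue of EEF1A1, fell by 1.01 ± 0.04 (limma, adjusted p = 6.37e-15), and its reads can be shared with EEF1A1 where the sequences agree. In C4, compared with the same WT libraries, TAB3 was at 0.73 ± 0.03, GIPC1 at 0.33 ± 0.03 and ORC1 at 0.09 ± 0.03. TAX1BP1 was at -0.07 ± 0.02 there, BCKDHA at -0.19 ± 0.03 and EEF1A2 at -1.08 ± 0.04. ORC2 and ORC6 went the other way in C4, at -0.20 ± 0.03 and -0.11 ± 0.03. Of the 5 ORC partners, 1 was called higher and 4 lower in C4.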

How the data were processed

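The deposited table holds log2 values per gene, which the authors named normalized counts. The submitters' processing notes name STAR 2.7.3a, Subread 1.6.3 and DESeq2 (version not given in the sources used here) and hg38, with no role or order; the transform is not named, and a regularized log was inferred from the small spread of low values. Members and lists were chosen with earlier results of these data known. The test covered genes whose antilog averaged 10 or more. A single linear model held the 9 libraries together (R 4.3.3, limma 3.58.1), with an intensity trend and Benjamini-Hochberg adjustment over 16457 genes, two-sided. The fit was tested on simulated data. Named members are the 5 lowest, 5 highest and 3 nearest the median in B3, the 4 most abundant, and the 5 highest and lowest in C4. Those of neighbours and partners follow like rules. ME1, KLHL32, the p-values of MAP3K7 and TPBG, and the other ORC and TAB partners were added after their values were seen. So were the counts of the TMEM30A and RRAGD partners. The 3 promoters shown were picked by hand. Positions are from GENCODE 29 (GRCh38), which gave 95.6% of tested genes. Alternatives changed the filter, scaling, pseudocount, moderation, libraries and replicate block.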

Additional observations from a re-analysis of the deposited data

Results flagged for a closer look

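For 12 members every B3 library lay below every WT library and every C4 library above every WT library, so the lines stood on opposite sides of wild type. The difference between the lines was not tested, because B3 took part in the choice of members. In C4 minus WT these members were at 0.199 (SMAP1), 0.144 (SLC17A5), 0.232 (MYO6), 0.111 (PHIP), 0.188 (HMGN3), 0.091 (ELOVL4), 0.152 (CYB5R4), 0.07 (ZNF292), 0.169 (RNGTT), 0.142 (PM20D2), 0.058 (LYRM2) and 0.23 (MDN1). The same pattern was shown by 5.51% of all tested genes, but the members were chosen for low B3 values, so nothing is read from that share. C4 libraries wholly above WT were found for 12 of the 50 members and for 30.4% of all tested genes.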

How the results depend on the processing

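Under the 19 alternatives the members' median in B3 stayed between -0.43 and -0.38. It was -0.38 with every library at the same summed antilog, -0.402 with libraries centred on their median and, as an alternative chosen after seeing the data, -0.434 over the members before MANEA; leaving out a library gave -0.423 to -0.407. The count of members with B3 wholly below WT was 44 to 46 with a library left out. The C4 median moved across 0, to 0.015 at the same summed antilog, a scaling that shifts all genes by 0.03 in C4, and ranged from -0.035 to 0.01 with a library left out. Members called in C4 numbered 11 to 15 higher and 13 to 17 lower with a library left out, and 19 higher and 12 lower at the same summed antilog; among partners in B3 the counts were 16 to 18 and 9 to 14 with a library left out, and 26 were called higher at the same summed antilog. Of the 32 members called in C4, 22 kept call and sign in all alternatives. The calls of SH3BGRL2, UBE3D, PGM3, ZNF292, PNRC1, LYRM2, CASP8AP2, UFL1, KLHL32 and MMS22L ended in at least 1, each also without at least 1 single library, with adjusted p up to 0.246 (UBE3D). LMBRD1, TMEM30A, FILIP1, IBTK, SYNCRIP and FBXL4 were called in at least 1. Replicate numbers gave no pairing: deviations of the 9 same-numbered pairs correlated at -0.23 to 0.02. With the replicate block UBE3D (adjusted p = 0.0526), PNRC1, LYRM2 and MMS22L lost their calls, which left 13 members called higher and 15 lower in C4. Depth is unknown and values under 5 spread less between replicates, so differences of FILIP1 and KLHL32 may be understated, which was not tested.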
